A study of Rattus norvegicus with 3 samples.

Results

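The genes described here are the interleukins, the ligands of the tumour necrosis factor (TNF) superfamily and the receptors and inhibitors of both, in rat tibialis anterior muscle that had been electroporated with a plasmid for a lipid droplet protein. They were taken by symbol from the platform annotation: every gene whose symbol was Il followed by a number, began with Tnfsf or Tnfrsf, or was Tnf. This gave 88 of the 14506 genes measured by a probe set with a single symbol, with 65 interleukin symbols and 23 TNF symbols. By role they were 40 ligands, 3 soluble inhibitors (Il1rn, Il36rn and Il18bp) and 45 receptors, of which 4 are decoys (Il1r2, Il13ra2, Il22ra2 and Tnfrsf11b).

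There were 3 groups with 1 array each: muscle given Plin5 (OXPAT) in pcDNA3.1 behind the CMV promoter, muscle given Plin2 (ADRP) in pENTR behind the CMV promoter, and muscle given empty pcDNA3.1. All were male Wistar rats aged 11 weeks, kept for 3 weeks on food in which fat gave 45% of the energy, that received 150 µg of plasmid after 2 weeks of it and were killed 8 days later. RNA of 6 rats was pooled on each array, so no spread between animals was measured, no difference below was tested, and the number of arrays limits the precision. The Plin2 plasmid differed from the empty one in backbone as well as insert, so backbone and insert cannot be told apart on that array. All levels are log2 RMA values. Plin5 stood at 8.30 with Plin5 and 6.79 with Plin2, against 7.52 with the empty vector. Plin2 stood at 10.08 with Plin5 and 10.71 with Plin2, against 9.99 with the empty vector. The lowest level among the 11 measured muscle fibre markers was 11.68, that of Myh2 on the Plin2 array.

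Interleukins and TNF family ligands are secreted or membrane-bound messengers between immune cells and tissue. Most interleukin receptors are assembled from a chain that is particular to a single cytokine and a chain shared by several, such as the common gamma chain Il2rg or gp130 (Il6st), and signal through Janus kinases and STAT factors. Receptors of the IL-1 and TNF families act through adaptor proteins on NF-kB. In injured muscle such signals come largely from infiltrating leukocytes, while the muscle fibre itself is a known source of IL-15 and IL-6.

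Most of the change lay on the Plin2 array, where 25 of the 88 genes (28.4%) were at least 1.5-fold higher than on the empty vector array and 0 were that much lower; across all 14506 genes 6.73% were higher and 4.36% lower by that amount. On the Plin5 array 0 were that much higher and 2 were lower, Il7r and Il10ra, beside 0.165% and 1.08% of all genes. Of the 54 genes that were not equal on all 3 arrays, 45 (83.3%) had their highest value on the Plin2 array, as did 45.5% of all such genes. By role, 7 of 40 ligands, 2 of 3 soluble inhibitors and 16 of 45 receptors were at least 1.5-fold higher on the Plin2 array. The median difference of the receptors from the empty vector was 0.00 on the Plin5 array and 0.24 on the Plin2 array. Over the 35 receptors whose mean level was at or above the 25th percentile of genes it was −0.03 and 0.50 in the same order. The median of the ligands was 0.00 on both, as it was for all genes. Many ligands exactly equalled the empty vector value, 28 of 40 on the Plin5 array and 24 of 40 on the Plin2 array. Of all 14506 genes, 7226 and 6110 did so in the same order. Over the 17 ligands whose mean level was at or above the 25th percentile the median was 0.00 and 0.03 in the same order. Dim values were more frequent among ligands than receptors. On all 3 arrays 21 of 40 ligands and 9 of 45 receptors were below the 25th percentile of genes (5.34), called the dim level here. Of all 14506 genes, 3564 were below it on all 3 arrays. These are bulk samples, so more or fewer cells of a type cannot be told apart from more or less RNA per cell.

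**Figure D1:**
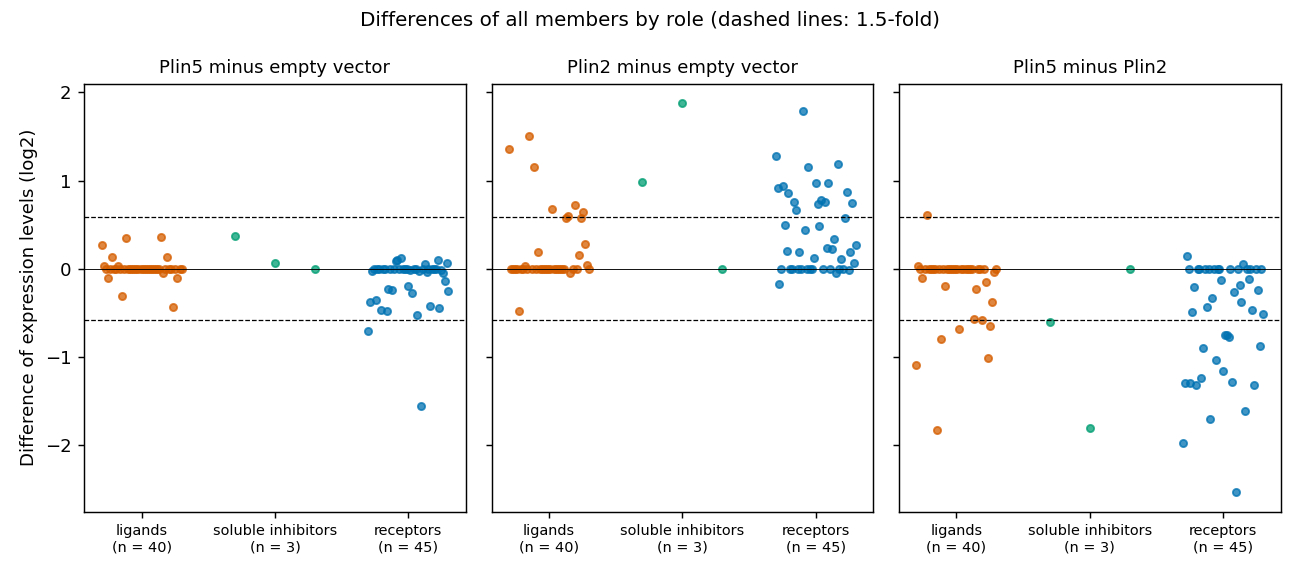
Difference of log2 expression levels for each of the 88 genes (1 point per gene) in the 3 comparisons, by role; dashed lines mark 1.5-fold. On the Plin2 array 25 genes lie above the upper line against the empty vector and 0 below the lower one, and on the Plin5 array 2 receptors lie below it.

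Among the IL-1 family, 8 of 18 genes were at least 1.5-fold higher on the Plin2 array than on the empty vector array, and they included ligands, receptors and inhibitors. The IL-1 receptor antagonist Il1rn, which occupies the IL-1 receptor without signalling, stood at 8.39 with Plin5 and 10.20 with Plin2, against 8.32 with the empty vector. The Plin2 array alone was high, by 1.88 log2 units (3.68-fold), the largest difference among the 88 genes in that comparison. Its agonist Il1b, the secreted IL-1 of activated macrophages, stood at 7.64 with Plin5 and 8.44 with Plin2, against 7.29 with the empty vector. Here the Plin5 array was higher by 0.35 and the Plin2 array by 1.15. The signalling receptor Il1r1 stood at 7.79 with Plin5 and 8.69 with Plin2, against 8.02 with the empty vector (a difference of 0.67 for Plin2). Its co-receptor Il1rap, shared with the IL-33 receptor, differed by 0.19 on the Plin2 array, and the decoy Il1r2 had the same dim value, 4.74, on all 3 arrays. The other agonist, Il1a, was likewise equal and dim at 3.67.

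The IL-33 and IL-18 branches of the family were higher on the Plin2 array as well. Il1rl1, which encodes the IL-33 receptor ST2 found on regulatory T cells, innate lymphoid cells and mast cells, stood at 6.07 with Plin5 and 7.78 with Plin2, against 5.99 with the empty vector. That was a difference of 0.09 for Plin5 and 1.79 (3.46-fold) for Plin2. Its ligand Il33, an alarmin released by damaged stromal cells, stood at 7.88 with Plin5 and 8.56 with Plin2, against 7.88 with the empty vector. Il18, whose product is matured by caspase-1, stood at 6.70 with Plin5 and 8.52 with Plin2, against 7.01 with the empty vector, a difference of 1.51 (2.85-fold) for Plin2. Its receptor chain Il18r1 differed by −0.47 on the Plin5 array and 0.76 on the Plin2 array. The binding protein that neutralises IL-18, Il18bp, stood at 8.75 with Plin5 and 9.36 with Plin2, against 8.38 with the empty vector. Il18bp was thus higher on both arrays (0.37 for Plin5, 0.98 for Plin2), whereas Il18 was lower on the Plin5 array (−0.31).

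**Figure D2:**
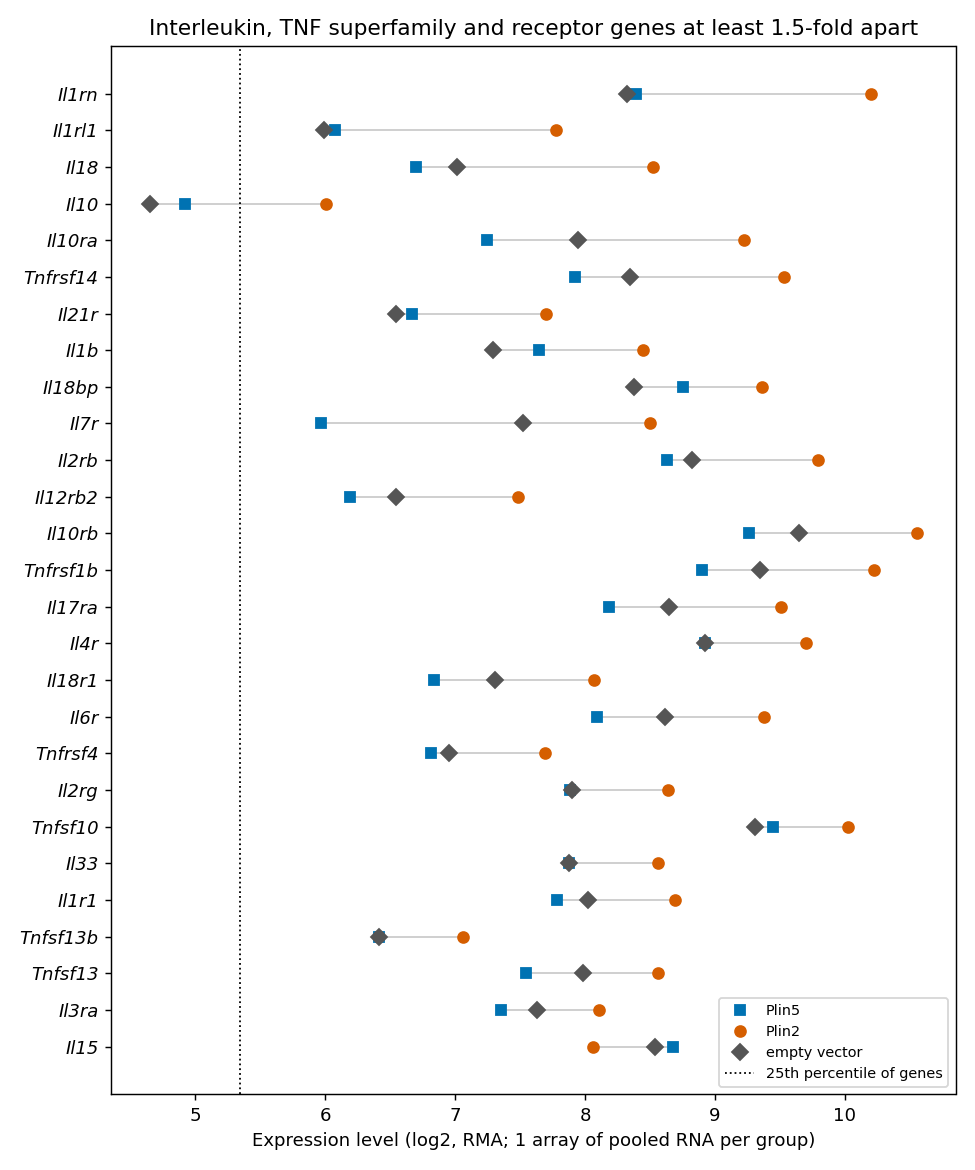
Log2 RMA expression level of the 27 genes that differed by at least 1.5-fold in a comparison with at least 1 of its arrays above the 25th percentile of genes (dotted line), on the Plin5, Plin2 and empty vector arrays, with 1 array of pooled RNA per point. The Plin2 point is rightmost for every gene shown except Il15, where it is leftmost; levels of different genes come from different probes and are not compared.

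IL-10 is a cytokine that restrains macrophages, and both chains of its receptor were higher on the Plin2 array. Il10ra, the binding chain, stood at 7.24 with Plin5 and 9.23 with Plin2, against 7.95 with the empty vector. Its difference from the empty vector was −0.71 (1.63-fold lower) for Plin5 and 1.28 for Plin2. Il10rb, the chain shared with the receptors for IL-22 and related cytokines, stood at 9.27 with Plin5 and 10.56 with Plin2, against 9.64 with the empty vector. Il10 itself stood at 4.92 with Plin5 and 6.01 with Plin2, against 4.65 with the empty vector. It was above the dim level only on the Plin2 array, so the size of its difference (1.36) is uncertain. The remaining ligands of this family, Il20, Il22 and Il24, were dim and exactly equal on all 3 arrays.

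For IL-6 the binding chain Il6r differed more than the signalling chain did. Il6r stood at 8.09 with Plin5 and 9.38 with Plin2, against 8.62 with the empty vector, which are differences of −0.52 for Plin5 and 0.76 for Plin2. Il6st, the gp130 chain that the cytokines of the IL-6 group share, stood at 10.93 with Plin5 and 11.20 with Plin2, against 10.96 with the empty vector. Il6 was dim at 4.97 on both the Plin5 and the empty vector array and reached 5.55 on the Plin2 array (1.49-fold). Il12rb2, the signalling chain for IL-12 on T helper and natural killer cells, stood at 6.19 with Plin5 and 7.48 with Plin2, against 6.54 with the empty vector. Its partner Il12rb1 was equal on all 3 arrays at 6.29, and both subunits of the ligand, Il12a and Il12b, differed by at most 0.10 in every comparison. In the IL-17 family 1 of 6 genes, the broadly expressed receptor chain Il17ra, was at least 1.5-fold higher on the Plin2 array. It stood at 8.18 with Plin5 and 9.51 with Plin2, against 8.65 with the empty vector. The ligands Il17a and Il17f were dim and equal throughout.

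Receptors that use the common gamma chain were described together with those for IL-13, whose chains Il13ra1 and the decoy Il13ra2 do not use it. In this group 5 of 9 receptors were at least 1.5-fold higher on the Plin2 array (median difference 0.74), while 6 of the 7 ligands were dim on all 3 arrays. Il2rg, the shared chain itself, stood at 7.89 with Plin5 and 8.64 with Plin2, against 7.90 with the empty vector. Il2rb, which pairs with it to bind IL-2 and IL-15 on T and natural killer cells, differed by −0.19 on the Plin5 array and 0.97 on the Plin2 array. Il21r, the receptor for the T cell cytokine IL-21, stood at 6.67 with Plin5 and 7.70 with Plin2, against 6.54 with the empty vector. Il4r is a chain of the receptors for IL-4 and IL-13 and drives alternative activation of macrophages. It was 0.00 apart on the Plin5 array and 0.77 higher on the Plin2 array. Its partner Il13ra1 was 0.50 higher on the Plin2 array. The ligands Il4, Il13 and Il21 were dim and equal on all 3 arrays, and Il2, also dim, differed by 0.19 at most.

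Il7r and Il15 departed from the other genes of this group. Il7r, the IL-7 receptor chain that T cells and innate lymphoid cells need to survive, stood at 5.96 with Plin5 and 8.50 with Plin2, against 7.52 with the empty vector. The difference for Plin5 was −1.56 (2.95-fold lower), the largest of the 88 genes in that comparison, and that for Plin2 was 0.98. Its ligand Il7 stayed under the dim level, at 4.87 with Plin5 and 5.10 with Plin2, against 4.51 with the empty vector, so its 1.51-fold difference on the Plin2 array rests on dim values; after centring on the median of the 14506 genes it was 0.51 log2 units, under 1.5-fold. Il15, a cytokine made by muscle fibres, stood at 8.67 with Plin5 and 8.06 with Plin2, against 8.54 with the empty vector. It was the single gene of the 88 that was at least 1.2-fold lower on the Plin2 array than on the empty vector array (−0.48), beside 11.9% of all genes. Muscle fibre markers had median differences of 0.02 on the Plin5 array and −0.19 on the Plin2 array, and 2 of 11, Myh2 and Mybpc2, were at least 1.5-fold lower on the Plin2 array; their part in the Il15 value was not tested.

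**Figure D3:**
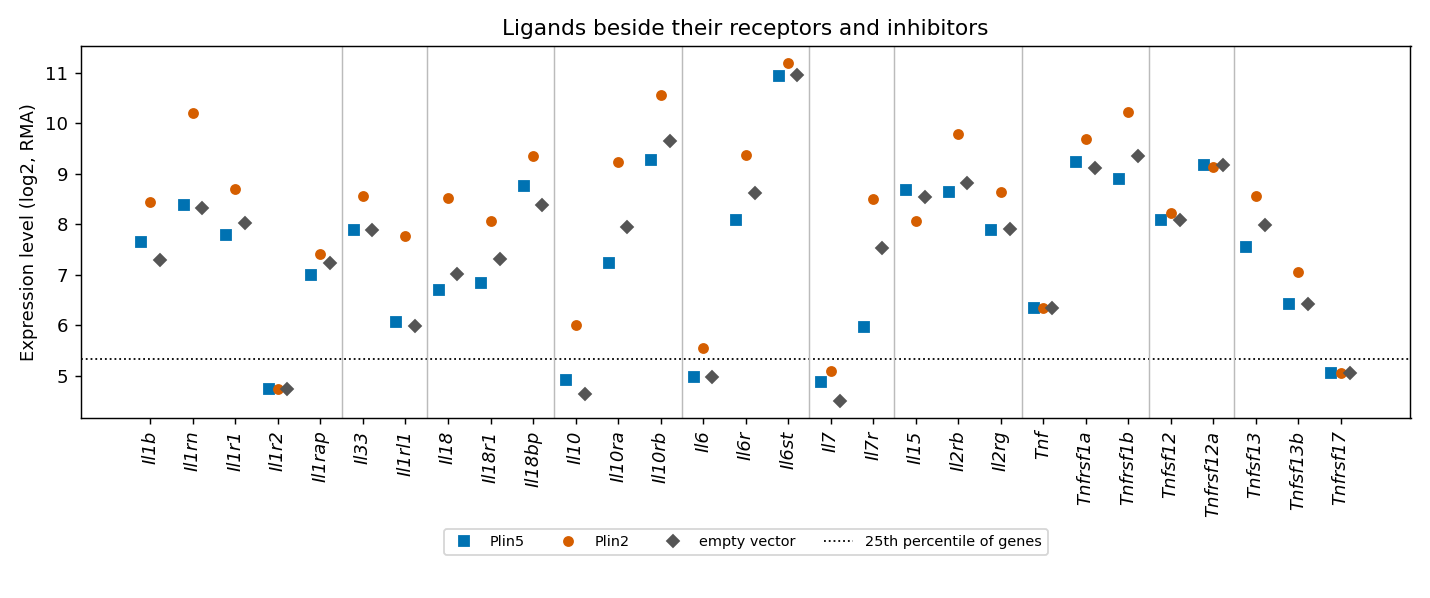
Log2 RMA expression levels of ligands beside their receptors and inhibitors on the Plin5, Plin2 and empty vector arrays (1 array each), with vertical lines between systems and a dotted line at the 25th percentile of genes. Il10, Il6 and Il7 lie under or near the dotted line while their receptors lie above it, and the 3 points of Tnf coincide; levels of different genes are not compared.

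In the TNF superfamily 5 of 23 genes were at least 1.5-fold higher on the Plin2 array, and TNF itself was not among them. Tnf had exactly the same value, 6.35, on all 3 arrays. Its receptors did differ: Tnfrsf1b, a receptor found mainly on leukocytes, stood at 8.90 with Plin5 and 10.22 with Plin2, against 9.35 with the empty vector. Tnfrsf1a, the ubiquitous receptor with a death domain, stood at 9.23 with Plin5 and 9.70 with Plin2, against 9.13 with the empty vector. Tnfrsf1b thus differed by −0.45 on the Plin5 array and 0.87 on the Plin2 array, and Tnfrsf1a by 0.10 and 0.57. Tnfrsf14, known as HVEM, a receptor for LIGHT and a ligand of the T cell inhibitor BTLA, stood at 7.92 with Plin5 and 9.53 with Plin2, against 8.34 with the empty vector. With a difference of 1.19 (2.28-fold) it was farthest from the empty vector among the 23 on the Plin2 array. Tnfrsf4, the OX40 co-stimulatory receptor of activated T cells, was 0.74 higher on the Plin2 array, and its ligand Tnfsf4 was dim on all 3 arrays.

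Of the TNF family ligands, Tnfsf10 and Tnfsf13b were at least 1.5-fold higher on the Plin2 array. Tnfsf10, the death ligand TRAIL, stood at 9.45 with Plin5 and 10.03 with Plin2, against 9.31 with the empty vector. Tnfsf13b, the B cell survival factor BAFF made by myeloid cells, stood at 6.42 with Plin5 and 7.06 with Plin2, against 6.42 with the empty vector. With the median of the 14506 genes set equal on every array its difference was 0.56, under 1.5-fold. The related ligand Tnfsf13 (APRIL) differed by −0.44 on the Plin5 array and 0.58 on the Plin2 array. Tnfrsf17, one of the receptors for these ligands and found on plasma cells, was dim and equal on all 3 arrays. Tnfsf12 and its receptor Tnfrsf12a, the TWEAK and Fn14 pair known for muscle atrophy and regeneration, differed by at most 0.15 on every pair of arrays. Tnfrsf12a stood at 9.18 with Plin5 and 9.13 with Plin2, against 9.18 with the empty vector. The osteoclast factor Tnfsf11 (RANKL) was dim and equal, and its decoy receptor Tnfrsf11b (osteoprotegerin) was 0.33 higher on the Plin2 array.

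Exactly equal values on all 3 arrays were found for 34 of the 88 genes (38.6%), close to the 36.1% of all genes, and for 22 of 40 ligands and 11 of 45 receptors. The median polish step of RMA can give such ties, so an equal value says that no difference was resolved, not that there was none. On all 3 arrays 31 of the 88 genes were below 5.34, as were 3564 of all 14506 genes. Of the 88, 25 were below 5.07 on all 3 arrays, the 95th percentile of 204 olfactory, vomeronasal and trace amine receptor genes. Those receptor genes are known from sensory tissue. Among the 34 were the epithelial IL-36 cytokines Il36a, Il36b and Il36g with their antagonist Il36rn, the eosinophil factor Il5 with its receptor Il5ra, and Il3. Above the dim level, 9 genes were equal on all 3 arrays, namely Il17re, Tnf, Tnfsf9, Tnfrsf19, Il9r, Il23a, Il12rb1, Il16 and Il34.

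Against the empty vector the Plin5 array differed little, and most of the genes that did differ were receptors with lower values. At a threshold of 1.2-fold, 12 of the 88 genes were lower and 4 higher, beside 4.59% and 1.33% of all genes. Of the 12, 10 were receptors, with Il6r (−0.52), Il18r1 (−0.47), Il17ra (−0.47) and Tnfrsf1b (−0.45) following Il7r and Il10ra. The 4 higher genes were the ligands Il1b (0.35), Il10 (0.27) and Il7 (0.36), of which Il10 and Il7 were below the dim level on both arrays, and the inhibitor Il18bp (0.37). Macrophage markers moved on the same array: 6 of 17 were at least 1.5-fold lower and 0 higher (median −0.38). By any amount, 13 of the 17 were lower, 3 were higher and 1 was equal. Trem2 was the lowest at −1.33, and Cd14 lay farthest the other way at 0.21. The median difference of lymphocyte markers (T, natural killer and B cells) was −0.23, with 1 of 19 at least 1.5-fold lower (Gzmk) and 2 higher (Gzma and Gzmb). The part of these cells in the receptor values was not tested.

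Set directly against the Plin2 array, the Plin5 array was at least 1.5-fold lower for 25 of the 88 genes and higher for 1, beside 8.57% and 5.4% of all genes. The single higher gene was Il15 (0.61). The lowest were Il7r (−2.54), Il10ra (−1.98), Il18 (−1.83), Il1rn (−1.81), Il1rl1 (−1.70) and Tnfrsf14 (−1.61). Il3ra (−0.76), the IL-3 receptor chain, and Tnfsf13 (−1.02) passed 1.5-fold in this comparison alone, as Il15 did. Centring on the median of the 14506 genes shifts this comparison by 0.12 and gave 22 lower and 1 higher. The values come from the same 3 arrays as the other comparisons and add no samples.

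Most leukocyte markers passed 1.5-fold on the Plin2 array, on which 16 of 45 receptors did. Macrophage markers were at least 1.5-fold higher for 15 of 17 genes (median 1.12). Those that did not pass were Cd163 (0.43) and Marco, which was equal on all 3 arrays. The summed linear level of the 17 was 12539 with Plin5 and 34225 with Plin2, against 15794 with the empty vector. The lymphocyte markers were that much higher for 15 of 19 genes (median 0.93), with summed levels of 5689 with Plin5 and 12209 with Plin2, against 6034 with the empty vector. The lymphocyte markers that did not pass 1.5-fold were Cd4 (0.52), the natural killer cell marker Ncr1 (0.12) and the B cell markers Cd79b and Ms4a1. Cd79b was equal on all 3 arrays, and Ms4a1 was under the dim level on all 3 arrays. Cd4 had the highest level of the list on each array and so weighs most in the sums. Which cells the Cd4 RNA came from was not tested, so the sums need not reflect lymphocytes alone. Of 7 mast cell markers 1 was at least 1.5-fold lower on the Plin2 array, Cpa3 (2.29-fold), and 0 were higher; Ms4a2 and Mcpt1 were under the dim level throughout. Endothelial markers (median 0.00) and fibroblast markers (0.14) had 0 genes at least 1.5-fold apart on that array. The part of each cell type in the cytokine and receptor values was not tested.

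**Figure D4:**
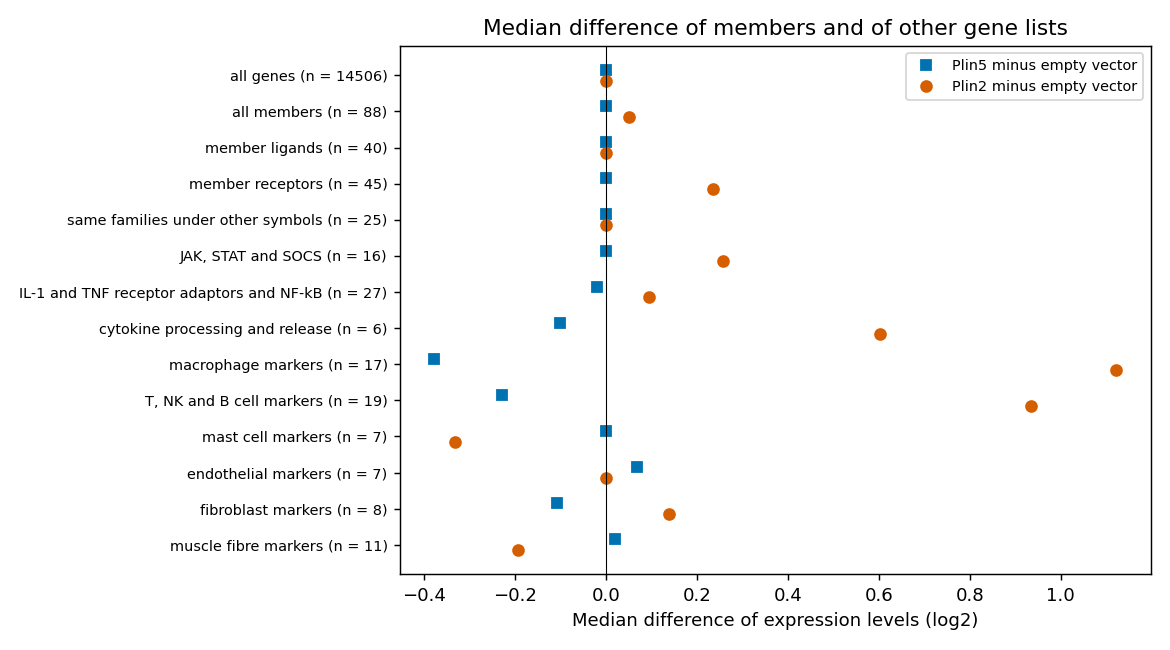
Median difference of log2 expression levels from the empty vector array for all genes, for the interleukin and TNF family genes ("members") with their ligands and receptors, and for other gene lists, on the Plin5 array (squares) and the Plin2 array (circles); n is the number of genes measured. Macrophage markers lie farthest from 0 on both arrays, at −0.38 and 1.12, and ligands lie at 0.00 on both.

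Downstream of the receptors, 7 of 16 measured genes of the JAK, STAT and SOCS list were at least 1.5-fold higher on the Plin2 array and 0 lower. Socs1, a feedback inhibitor induced by cytokines, was 1.54 higher, followed by Stat2 (1.00), Socs3 (0.97) and Jak3 (0.88), the kinase bound to the common gamma chain, and the lowest was Cish (−0.50). On the Plin5 array 1 gene of the list was that much higher, Socs3, the inhibitor of gp130 signalling, and 0 were lower. Socs3 stood at 7.97 with Plin5 and 8.21 with Plin2, against 7.24 with the empty vector, so it was high on both. Of 27 measured adaptors and NF-kB genes, 5 were at least 1.5-fold higher on the Plin2 array, and 0 were lower. They were Casp8 (0.91), Ripk1 (0.85), Myd88 (0.84), Nfkbia (0.73) and Nfkbie (0.73), which include the adaptor of the IL-1 receptor and a pair of NF-kB inhibitors; Tab2 was the lowest (−0.34). On the Plin5 array 0 of the 27 were 1.5-fold apart in either direction. Of 6 measured genes for cytokine processing and release, Casp1 (0.77), Pycard (0.70), Casp4 (0.62) and Gsdmd (0.59), all parts of the inflammasome route that releases IL-1 and IL-18, were that much higher on the Plin2 array.

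Genes of the same cytokine families that carry other symbols went both ways. Of 25 measured, 5 were at least 1.5-fold higher on the Plin2 array: Csf2rb (2.30-fold), and, as log2 differences, Csf2ra (1.03), Cd27 (0.87), the oncostatin M receptor Osmr (0.72) and Ebi3 (0.72). Lower by that amount were 2 genes of the IL-6 group, Ctf1 (−0.76), which encodes cardiotrophin, and Cntfr (−0.68), the receptor for ciliary neurotrophic factor. Ebi3, a subunit of IL-27, stood at 8.54 with Plin5 and 10.41 with Plin2, against 9.69 with the empty vector. It was the single gene of this list past 1.5-fold on the Plin5 array (−1.16). On the Plin2 array 20% of the list was at least 1.5-fold higher and 8% lower, beside 6.73% and 4.36% of all genes. On the Plin5 array 4% was lower, beside 1.08% of all genes. The median of the list was 0.00 on both arrays.

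The 250 bases upstream of the annotated gene start were searched for 3 motifs in the RefSeq promoter table (GRCr8), which held 66 of the 88 genes, 20 of them at least 1.5-fold higher on the Plin2 array with a level above the dim level. The motifs were TTCNNNGAA for STAT factors, where N is any base, GAAA and GAAA with any 2 bases between them for interferon regulatory factors, and GGG and TTTCC with any 2 bases between them for NF-kB, each on both strands. They were found upstream of 6, 8 and 4 of the 66 genes (9.09%, 12.1% and 6.06%), and of 8.19%, 3.61% and 1.37% of 27457 genes. Among the 20 genes each motif was found upstream of 2. A match is a run of letters and was not shown to be a binding site. The windows of these 6 genes are printed 5′ to 3′ on the gene's strand and end at the base before its start, with the match in capitals, to show where it lies:
Il1rn, chr3:27520072-27520321, plus strand, NF-kB: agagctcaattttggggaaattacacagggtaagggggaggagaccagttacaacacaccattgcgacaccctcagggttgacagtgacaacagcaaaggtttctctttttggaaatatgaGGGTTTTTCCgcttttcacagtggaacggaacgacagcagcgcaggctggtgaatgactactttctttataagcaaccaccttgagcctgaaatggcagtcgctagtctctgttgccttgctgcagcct
Tnfrsf4, chr5:171888884-171889133, plus strand, NF-kB: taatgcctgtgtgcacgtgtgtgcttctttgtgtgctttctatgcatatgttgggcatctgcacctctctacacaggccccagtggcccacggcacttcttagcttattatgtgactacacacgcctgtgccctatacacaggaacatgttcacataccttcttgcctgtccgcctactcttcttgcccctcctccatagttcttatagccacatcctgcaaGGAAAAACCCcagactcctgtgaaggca
Il18r1, chr9:50223241-50223490, plus strand, STAT: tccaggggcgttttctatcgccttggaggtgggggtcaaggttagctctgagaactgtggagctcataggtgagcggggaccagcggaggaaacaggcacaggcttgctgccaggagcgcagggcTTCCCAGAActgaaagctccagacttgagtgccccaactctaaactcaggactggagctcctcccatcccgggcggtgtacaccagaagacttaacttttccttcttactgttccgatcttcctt
Il12rb2, chr4:97844938-97845187, minus strand, STAT: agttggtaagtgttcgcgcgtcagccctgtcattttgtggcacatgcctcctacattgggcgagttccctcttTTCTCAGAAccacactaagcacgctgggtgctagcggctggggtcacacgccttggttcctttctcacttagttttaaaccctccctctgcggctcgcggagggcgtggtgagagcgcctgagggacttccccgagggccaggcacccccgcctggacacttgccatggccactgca
Tnfsf13b, chr16:86194500-86194749, minus strand, interferon regulatory factors: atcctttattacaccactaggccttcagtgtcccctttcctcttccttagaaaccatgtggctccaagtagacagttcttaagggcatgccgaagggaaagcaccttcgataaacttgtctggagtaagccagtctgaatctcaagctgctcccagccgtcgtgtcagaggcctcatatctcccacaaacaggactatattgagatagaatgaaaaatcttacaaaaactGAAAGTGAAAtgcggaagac
Tnfrsf1b, chr5:162387412-162387661, minus strand, interferon regulatory factors: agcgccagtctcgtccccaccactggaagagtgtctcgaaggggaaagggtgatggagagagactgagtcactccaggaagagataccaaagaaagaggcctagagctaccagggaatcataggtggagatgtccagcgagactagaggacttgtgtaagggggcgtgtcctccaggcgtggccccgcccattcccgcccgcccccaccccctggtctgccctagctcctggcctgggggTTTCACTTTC

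The matches began 10 bases before the start in Tnfrsf1b, 20 in Tnfsf13b and 28 in Tnfrsf4, and 125, 129 and 177 bases before it in Il18r1, Il1rn and Il12rb2. Against the empty vector, the Plin2 array differed most for Il1rn among these 6 (1.88), followed by Il12rb2 (0.94), Tnfrsf1b (0.87), Il18r1 (0.76), Tnfrsf4 (0.74) and Tnfsf13b (0.65). Il6 and Il9 also held the NF-kB letters, and neither passed 1.5-fold in any comparison.

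Neighbouring genes of these families did not all move alike. In the RefSeq annotation Il1r1, Il1rl2, Il1rl1 and Il18r1 follow one another with 0 protein-coding genes between them, and they were 0.67, 0.43, 1.79 and 0.76 higher on the Plin2 array than on the empty vector array; Il1r2, separated from Il1r1 by 1 gene, was equal. Il1rn (1.88) adjoins Il1f10 and the IL-36 genes, which were equal on all 3 arrays. Il1b (1.15) adjoins Il1a, and Il10 (1.36) lies near Il20 and Il24, all 3 of which were equal as well. Every equal neighbour named here was below the dim level on all 3 arrays, so a difference in it may not have been resolved. Among neighbours above the dim level on all 3 arrays, Tnfrsf4 (0.74) adjoins Tnfrsf18 (0.12). Tnfsf13 (0.58) adjoins Tnfsf12 (0.15), also above it. Il4r (0.77) and Il21r (1.16) adjoin each other, and both were higher.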

How the data were processed

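Expression was measured on 3 whole-transcript arrays, 1 per group, each of RNA pooled from 6 rats. The deposited values were log2 RMA levels (background-corrected, quantile-normalized and summarised over the probes of a set), and RMA is named without a version per the submitters' processing notes. The log base was taken from the range of the values. No chip description, annotation version or genome build is named by those notes. The values were taken unchanged. The platform annotation gives a single symbol to 15310 of the 29214 probe sets and several to 323, and does not list 13581. These made 14506 genes, each represented by its brightest probe set. All 88 genes described matched the RefSeq gene table (GRCr8, used for names and neighbours) by gene number, and 0 symbols differed.

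With 1 array per group there was no test, p-value or standard deviation. Differences of log2 values were counted past 1.5-fold over every gene, dim ones included, beside the same share of all genes. Named genes were those past 1.5-fold in a comparison with at least 1 of both arrays above the dim level, and ligands with their receptors. From other lists up to 4 leading genes and the one farthest the other way were named, and all genes behind a count of 5 or fewer. Genes and lists were chosen with earlier results of these data known. Counting was checked on simulated data with known shifts, which says nothing of the spread between animals. RMA returns exactly equal values for many probe sets, and quantile normalization hides changes in total RNA. Alternatives covered the fold threshold, dim filters, centring, normalization, loess and averaging of probe sets. The software was pandas 2.3.3, numpy 2.4.6, statsmodels 0.14.6 and matplotlib 3.10.9 under Python 3.11.15.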

Additional observations from a re-analysis of the deposited data

How the results depend on the processing

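No paired analysis was possible because each group had 1 array. The 53 differences of single genes past 1.5-fold were recomputed under 6 alternatives. Of 315 values, 307 stayed past 1.5-fold, 8 fell under it and 0 changed sign. The dim filters only left genes out, and each described gene had a single probe set, so averaging changed nothing. Those alternatives could not move a value. After centring, repeated quantile normalization and loess, 48, 50 and 53 of the 53 stayed past 1.5-fold, in that order. The 8 that fell under it were of Tnfsf13b, Il18bp, Il33 and Il7 after centring or repeated quantile normalization. The fold threshold moved the counts: at 1.2-fold, 4 genes were higher and 12 lower on the Plin5 array against the empty vector, and 1 was lower on the Plin2 array; at 2-fold, 1 was lower on the Plin5 array, 8 were higher on the Plin2 array, and 16 were lower and 0 higher on Plin5 against Plin2. Leaving out dim genes, most of which were equal, gave medians of 0.41 over all described genes and 0.50 over receptors on Plin2 against the empty vector, and −0.48 and −0.52 on Plin5 against Plin2. With the olfactory receptor level as the limit, the medians on Plin2 against the empty vector were 0.33 over all described genes, 0.15 over ligands and 0.46 over receptors, and on Plin5 against Plin2 they were −0.38 over all described genes and −0.15 over ligands. Centring turned the small median over all described genes to −0.035 on Plin2 against the empty vector and 0.053 on Plin5 against Plin2. Signal near background limits Il10, Il6 and Il7.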

Other observations

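A second probe set, which the platform annotation gives to both Il13ra1 and its pseudogene and which was therefore left out, stood at 10.06 with Plin5 and 10.55 with Plin2, against 9.98 with the empty vector. The single-symbol probe set of Il13ra1 stood at 10.01 with Plin5 and 10.51 with Plin2, against 10.01 with the empty vector.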
